A study of Drosophila melanogaster with 3 samples.

Results

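The genes described here encode the subunits of the proteasome, chosen as the protein-coding genes whose symbol begins with Prosalpha, Prosbeta, Rpn or Rpt followed by a digit in the Ensembl gene models of Drosophila melanogaster. The rule found 48 genes of 13945 protein-coding genes on the 6 major chromosome arms. By symbol, 32 carried a subunit number alone (the main-line genes), and 16 carried the letter R or T after it and were kept apart as suffixed paralogues. The main-line genes comprised 14 core particle genes, 7 of the alpha ring and 7 of the beta ring, and 18 regulatory particle genes. The regulatory genes encode 6 ATPases of the base, 4 other base subunits and 8 lid subunits. The study mapped where the protein CG6765, carrying enhanced green fluorescent protein (eGFP) at its C terminus, bound chromatin, by chromatin immunoprecipitation and sequencing (ChIP-seq). All samples were whole embryos aged 0 to 24 h, of mixed sex, of a transgenic fly line that stably carried the fusion, as 3 biological replicates of 1 group. The labels do not name the promoter that drives the fusion. Whole embryos mix all cell types and stages of that window, so a region bound in few cells and a region weakly bound in many cannot be told apart.

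The proteasome degrades proteins that carry ubiquitin chains. Its core particle is a barrel in which outer alpha rings form the gate and inner beta rings hold the cutting sites. The regulatory particle caps the barrel: the ATPases of its base unfold the substrate, other base subunits bind ubiquitin, and the lid removes the chain. Subunits are needed in fixed proportions, and in many animals their genes are controlled together by Nrf-type transcription factors, of which cnc is the fly member. Several paralogues with the letter T are known to be expressed in the testis, where they replace the main-line subunit.

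The authors deposited, for each replicate and for the pooled replicates, a list of 30000 candidate regions labelled as peaks and background, and a thresholded list of 3816 regions that passed a reproducibility step. Each region has a signal value of no stated unit and a summit, the position of highest signal. Signals were compared only within a list, and ranks are given with 1 as the strongest of 30000. The thresholded regions were exactly the 3816 pooled candidates of highest signal, so a pooled rank above 3816 lies outside the threshold. A gene counted as carrying a summit when one lay within 500 bp of any of its annotated start sites. In the replicates' own lists the 3816 regions of highest signal were called the strongest, so that all lists were read at equal length. The start site of CG6765 itself had a summit of pooled rank 501, with ranks 558, 1394 and 135 in replicates 1, 2 and 3. The depth behind each list is unknown because no read numbers come with it, and Wilson 95% intervals cover only the counting of genes.

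The sequences below, from the RefSeq assembly of dm6, are those the results refer to, read 5′ to 3′ on the subunit gene's strand. The first 3 lie at the summits of thresholded regions at Rpn5, Rpn3 and Rpt5, cut to bases outside annotated UTRs, and are shown to give the bases at these summits.
Rpn5 summit, chr3R:5789148-5789198, plus strand: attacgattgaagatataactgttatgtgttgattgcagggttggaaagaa
Rpn3 summit, chr2L:19051747-19051789, plus strand: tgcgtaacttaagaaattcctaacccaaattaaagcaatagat
Rpt5 summit, chr3R:23752835-23752871, plus strand: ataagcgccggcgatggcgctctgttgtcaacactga
The next lines give the 30 bases around the word TATCGATA, the DNA replication-related element (DRE), in the promoters of Rpt5 and Rpn3, which had a thresholded summit. The capitals mark the word.
Rpt5 word, chr3R:23752819-23752848, plus strand: atcgctgtcacTATCGATAagcgccggcga
Rpn3 word, chr2L:19051582-19051611, plus strand: tgttatcggagTATCGATAtcgaaaaggct
The last lines give the same word in promoters of subunit genes without a thresholded summit, for comparison with the lines above. Rpn7 and Rpn12 belong to the lid, and Prosalpha6, Prosbeta2 and Prosbeta6 to the core.
Rpn7 word, chr3R:22462033-22462062, minus strand: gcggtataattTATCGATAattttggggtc
Rpn12 word, chr3L:16582801-16582830, plus strand: ttgttaaaataTATCGATAttaaagcacaa
Prosalpha6 word, chr2L:10221324-10221353, plus strand: cccgaatccctTATCGATAcccgatacaca
Prosbeta2 word, chr3L:14999930-14999959, plus strand: ccatgaatataTATCGATAcaatatcgatt
Prosbeta6 word, chr3L:16610444-16610473, minus strand: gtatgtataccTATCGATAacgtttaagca

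CG6765 was recovered above the threshold at a minority of proteasome genes, all of them regulatory particle genes: Rpn3, Rpn5, Rpn6, Rpn9, Rpn13 and Rpt5. These were 6 of the 48 genes (12.5%, Wilson 95% interval 5.86 to 24.7%), against 17.0% of all protein-coding genes, so the subunit genes as a whole did not stand above the background. A pooled candidate of any strength lay at 21 of the 48 (43.8%), against 49.3% of all protein-coding genes. Where a candidate was present its median pooled rank was 9137 at the subunit genes and 6456 at all protein-coding genes. None of the 6 thresholded summits was among the 1908 strongest pooled candidates, which reached 9.44% of all protein-coding genes. Their pooled signals ran between 147 and 193, while all thresholded regions ran between 135 and 2699 with a median of 193.

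The replicates were read in the same way. A summit among the strongest regions lay at 3 of the 48 genes in replicate 1 (6.25%), 5 in replicate 2 (10.4%) and 5 in replicate 3 (10.4%), a mean of 9.03% ± 2.41 (SD, n = 3). All protein-coding genes reached 15.5%, 17.0% and 17.0% in the same lists, a mean of 16.5% ± 0.859 (SD, n = 3). The subunit genes were therefore lower than all protein-coding genes in every replicate. Only Rpn3 was among the strongest of all 3 replicates, 1 gene of 48, against 9.38% of all protein-coding genes. Any candidate lay at 17, 25 and 22 subunit genes in replicates 1, 2 and 3 (35.4%, 52.1% and 45.8%), against 43.6%, 50.6% and 49.7% of all protein-coding genes. That share was below the one of all protein-coding genes in replicates 1 and 3 and slightly above it in replicate 2. A candidate in every replicate was found at 9 subunit genes (18.8%, against 30.7% of all), and no candidate in any replicate at 16 (33.3%, against 34.5% of all).

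**Figure D1:**
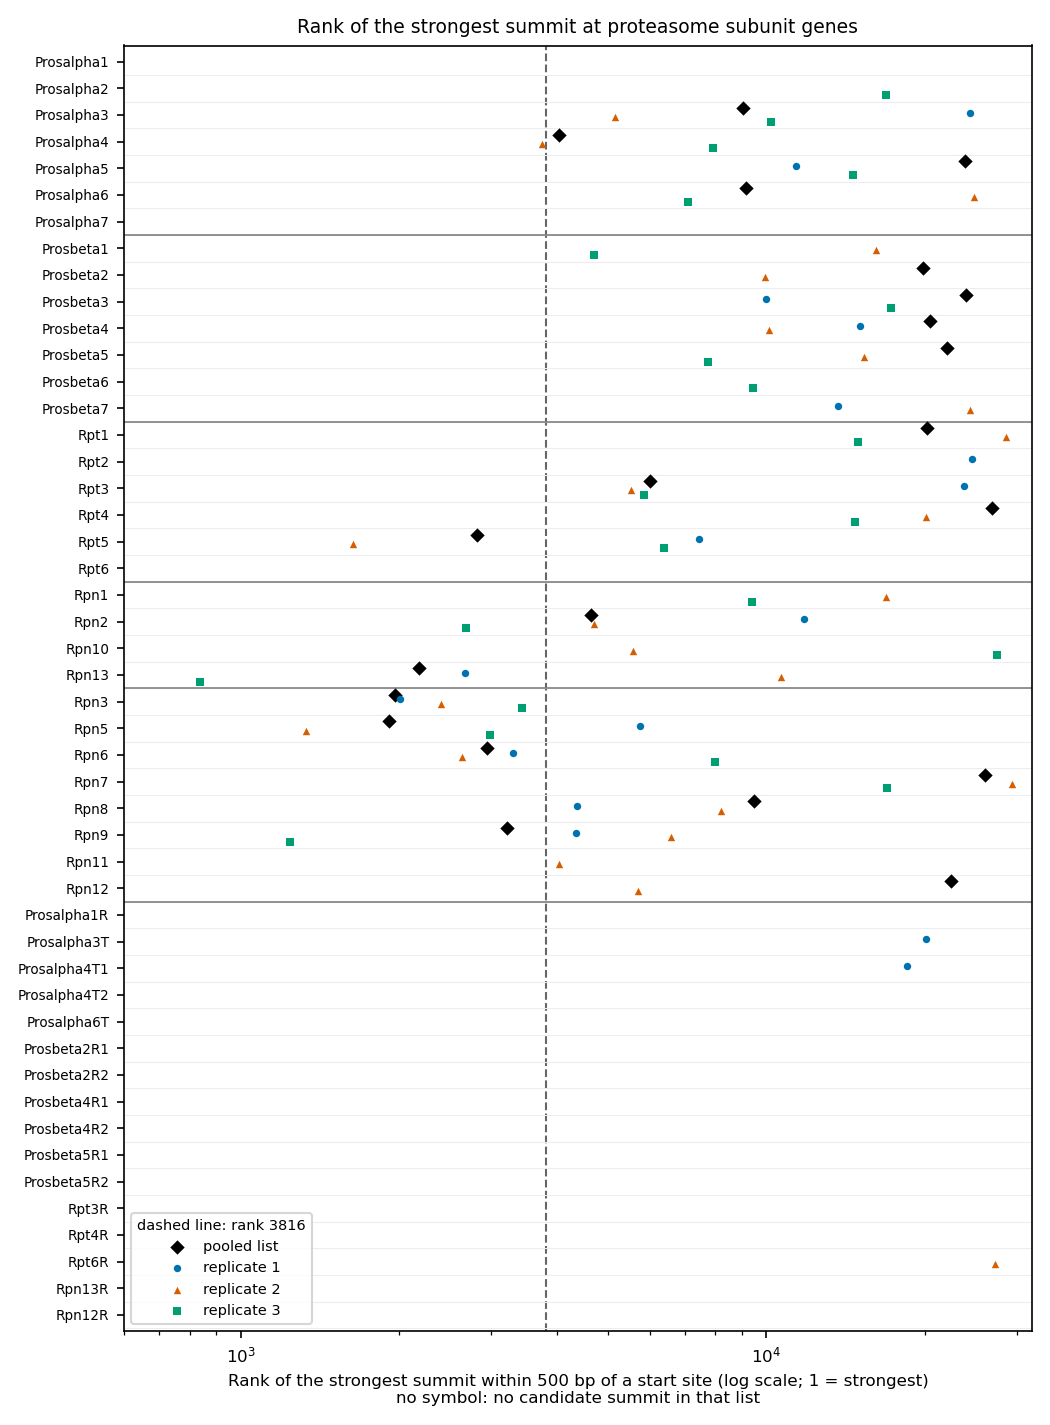
Rank of the strongest summit within 500 bp of a start site (horizontal log axis, 1 the strongest of 30000) for each of the 48 proteasome subunit genes (rows), with black diamonds for the pooled list and coloured symbols for each replicate's own strongest summit at the gene. Of the pooled symbols, 6 lie left of the dashed line at rank 3816, all in regulatory particle rows, and the 16 paralogue rows at the foot hold only 3 symbols, each from a single replicate.

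The lid held most of these summits, at 4 of its 8 genes (50.0%, Wilson 95% interval 21.5 to 78.5%), and 7 of the 8 had a pooled candidate (87.5%), against 17.0% and 49.3% of all protein-coding genes. Rpn3, Rpn5, Rpn6 and Rpn9 encode lid subunits with a PCI domain, the fold that links the lid scaffold, and Rpn7 and Rpn12 share it. Rpn8 and Rpn11 carry the other lid fold, the MPN domain, and neither had a thresholded summit. This grouping by fold was made after the values were seen.

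Rpn5 (FBgn0028690, 3R:5789493-5791569, plus strand) had the summit of highest signal among the subunit genes, in the region 3R:5788945-5789400 with its summit at 5789173. It lay 320 bp upstream of the Rpn5 start, inside an intron of the neighbouring gene Hat1, which encodes a histone acetyltransferase. The pooled rank was 1919 and the signal 193, and summits within 100 bp ranked 5741, 1332 and 2987 in replicates 1, 2 and 3, with signals of 35.6, 99.8 and 53.1. Replicates 2 and 3 thus placed it among their strongest regions and replicate 1 did not. A further thresholded region at Rpn5 had its summit at 5789384, exactly on a Hat1 start site, with pooled rank 3559 and signal 140. That summit ranked 10779, 4230 and 11474 in replicates 1, 2 and 3, outside the strongest regions of each.

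Rpn3 (FBgn0261396, 2L:19051790-19053681, plus strand) had its summit at 19051772, 18 bp upstream of its start and between genes, in the region 2L:19051544-19051999. The pooled rank was 1967 and the signal 190, and the ranks in replicates 1, 2 and 3 were 2011, 2409 and 3431, with signals of 60.1, 72.6 and 50.3. It was the most even of the 6 genes across replicates, and also the only gene of the 6 whose own start site was the nearest coding start to the summit. The A and T rich bases around this summit are printed above, and 29.4% of the 51 bp window were G or C.

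Rpn6, whose product braces the lid against the core (FBgn0028689, 2R:14750166-14752910, minus strand), had a summit at 14752413 in the region 2R:14752185-14752640. It lay 142 bp upstream of the start of a shorter Rpn6 transcript and inside an intron of a longer one. The pooled rank was 2937 and the signal 154, and the ranks were 3295, 2635 and 7972 in replicates 1, 2 and 3, with signals of 47.3, 69.1 and 34.2. Here replicate 3 was the low one, below its strongest regions.

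Rpn9 (FBgn0028691, 3R:23731375-23733462, minus strand) had its summit at 23733303, 159 bp downstream of its start and in its own 5′ UTR, in the region 3R:23733075-23733530. The pooled rank was 3213 and the signal 147, the weakest of the 6. The ranks were 11699, 6580 and 1244 in replicates 1, 2 and 3, with signals of 25.3, 40.9 and 77.2, so only replicate 3 placed this summit among its strongest. In replicate 1 another summit at the gene, of rank 4347, was stronger.

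Of the remaining lid genes, Rpn8, the inactive partner of the lid deubiquitinase, had a pooled candidate of rank 9462 and signal 79.5, 477 bp upstream of its start in an intron of Slik. Rpn12 had one of rank 22487 and Rpn7 one of rank 26017, signals of 48.1 and 44.3. Rpn11, the deubiquitinase itself, had no pooled candidate and a single replicate candidate, of rank 4041 in replicate 2. All 8 lid genes had a candidate in replicate 2, against 50.6% of all protein-coding genes. In replicate 1 it was 5 of 8 (62.5%, against 43.6% of all), and in replicate 3 also 5 of 8 (62.5%, against 49.7% of all).

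In the base, 1 of 6 ATPase genes (16.7%, Wilson 95% interval 3.01 to 56.4%) and 1 of 4 other genes (25.0%, 4.56 to 69.9%) had a thresholded summit. With so few genes these shares cannot be set apart from the 17.0% of all protein-coding genes. Rpt5, whose product has a tail that helps open the gate of the core (FBgn0028684, 3R:23752876-23754623, plus strand), had its summit at 23752846, 30 bp upstream of its start, in the region 3R:23752618-23753073. The pooled rank was 2821 and the signal 157, and the ranks were 7448, 1635 and 6389 in replicates 1, 2 and 3, with signals of 31.3, 88.7 and 38.0. Only replicate 2 placed it among its strongest regions. The window around this summit was the richest in G and C of the 6, at 56.9% of 51 bp.

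Rpn13, a ubiquitin receptor of the base (FBgn0033886, 2R:13958545-13960404, minus strand), had its summit at 13960755, 351 bp upstream of its start, in the 5′ UTR of CtsL1, which encodes a lysosomal cathepsin. The region was 2R:13960527-13960982, with pooled rank 2187 and signal 180. The ranks were 2671, 10661 and 836 in replicates 1, 2 and 3, with signals of 52.3, 30.5 and 90.7. The rank of 836 was the strongest of any subunit gene in any replicate, and in replicate 2 the same summit lay far below the strongest regions. Counting summits within 250 bp in place of 500 bp removed Rpn13 and left 5 genes. Rpn5 then stayed only through its weaker region of pooled rank 3559, whose summit lay 109 bp from its start.

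Among the other base genes, Rpn2, which encodes the scaffold that holds Rpn13, and Rpt3 had pooled summits in the next 3816 places below the threshold. The Rpn2 summit lay 26 bp upstream of its start (3R:29153524-29157255, plus strand) with pooled rank 4637 and signal 120. It ranked 21456, 4691 and 12872 in replicates 1, 2 and 3, although another summit at the gene ranked 2683 in replicate 3. The Rpt3 summit lay 464 bp upstream of its start (X:11125101-11126785, plus strand) in the 5′ UTR of CG11122, with pooled rank 6018 and signal 104. It ranked 23792 in replicate 1 and 5856 in replicate 3. Replicate 2 had no summit within 100 bp, although another summit at the gene ranked 5537 there. Rpt1 and Rpt4 had weaker candidates, of ranks 20249 and 26810, and Rpt2, Rpt6, Rpn1 and the ubiquitin receptor gene Rpn10 had no pooled candidate.

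The 14 main-line core genes had no thresholded summit, which allows a share of up to 21.5% by the Wilson 95% interval, a range that includes the 17.0% of all protein-coding genes. A pooled candidate lay at 8 of the 14 (57.1%, against 49.3% of all), 4 in the alpha ring and 4 in the beta ring, with a median pooled rank of 20160. Most of these core candidates were weak. Prosalpha4 came nearest to the threshold (FBgn0004066, X:16276270-16277587, plus strand), with pooled rank 4034 and signal 130. Its summit, 382 bp upstream of the gene in the 5′ UTR of kat80, had no counterpart in replicate 1 and ranked 3746 and 7907 in replicates 2 and 3. It gave the core genes their only place among the strongest regions of a replicate.

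Prosalpha3 and Prosalpha6 followed at pooled ranks 9025 and 9137. All other core candidates ranked between 19855, at Prosbeta2, and 23992, at Prosbeta3. The beta subunits with catalytic sites are Prosbeta1, of caspase-like activity, Prosbeta2, of trypsin-like activity, and Prosbeta5, of chymotrypsin-like activity. Prosbeta2 and Prosbeta5 had pooled signals of 51.6 and 48.6, and Prosbeta1 had no pooled candidate, though it had a summit of rank 4696 in replicate 3. Prosalpha1, Prosalpha2, Prosalpha7, Prosbeta6 and Prosbeta7 had none in the pooled list either, and Prosalpha1 and Prosalpha7 had none in any list. Among the main-line genes only Rpt6 shared that.

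Core genes carried a summit among the strongest regions in 0 of 14, 1 of 14 and 0 of 14 cases in replicates 1, 2 and 3, and regulatory genes in 3, 4 and 5 of 18. The mean shares were 2.38% ± 4.12 for the core and 22.2% ± 5.56 for the regulatory particle (SD, n = 3), with 15.5 to 17.0% for all protein-coding genes. Core minus regulatory was −16.7, −15.1 and −27.8 percentage points in replicates 1, 2 and 3, a mean of −19.8 with an SD of 6.92. The core was lower in all 3 replicates and the groups did not overlap. An exact two-sided sign-flip test over 3 replicates cannot go below p = 0.25, so the design cannot pass a threshold. For candidates of any strength the core had 52.4% ± 14.9 and the regulatory particle 72.2% ± 16.7 (SD, n = 3). All protein-coding genes had 47.9% ± 3.81. The core was below all protein-coding genes in replicate 1 and above them in replicates 2 and 3. Within replicates 1, 2 and 3 core minus regulatory was then −19.8, −31.7 and −7.94 percentage points, a mean of −19.8 with an SD of 11.9. The core was thus again lower than the regulatory particle in all 3. All of these differences rest on few genes.

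**Figure D2:**
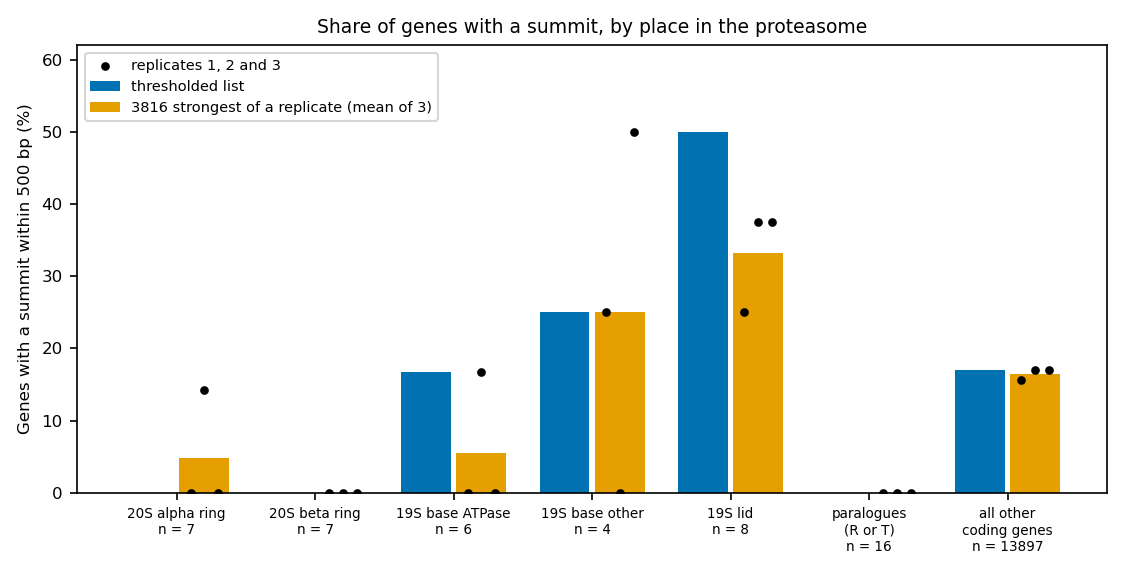
Percent of genes with a summit within 500 bp (vertical axis), by place in the proteasome and for all other protein-coding genes, with blue bars for the thresholded list, orange bars for the mean of the 3 replicates' strongest 3816 regions and a black point per replicate. The lid stands at 50.0% of 8 genes in the thresholded list, the alpha ring, beta ring and paralogues at 0, and all other genes at 17.0%.

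**Figure D3:**
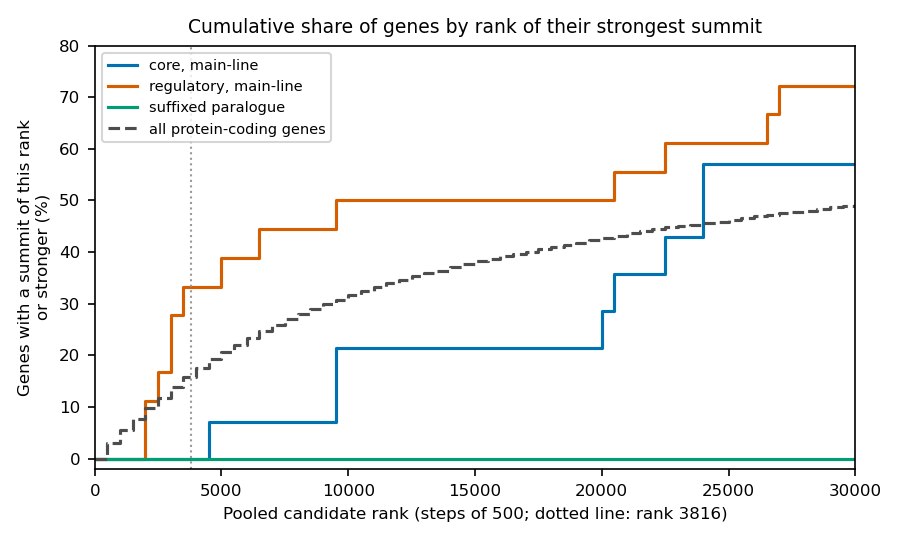
Cumulative percent of genes (vertical axis) whose strongest pooled summit has at most the rank on the horizontal axis, in steps of 500, for core main-line genes, regulatory main-line genes, paralogues and all protein-coding genes (dashed). The core curve stays at 0 until the step at rank 4500 and ends at 57.1%. The regulatory curve reaches 33.3% by the dotted line at rank 3816 and 72.2% by the end, and the paralogue curve stays at 0.

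Of the 32 main-line genes 6 had a thresholded summit and 21 a pooled candidate, and of the 16 suffixed paralogues none had either. A count of 0 of 16 allows a share of up to 19.4% by the Wilson 95% interval, so the lack of thresholded summits alone lay within reach of the 17.0% of all protein-coding genes. The lack of any pooled candidate stood against 49.3% of all protein-coding genes. In the replicates' lists only 3 paralogues had a candidate: Prosalpha3T at rank 20140 and Prosalpha4T1 at rank 18515 in replicate 1, and Rpt6R at rank 27214 in replicate 2. No candidate in any replicate was found at 3 of the 32 main-line genes (9.38%) and at the other 13 paralogues (81.2%), with 34.5% for all protein-coding genes. These 13 paralogues were Prosalpha1R, Prosalpha4T2, Prosalpha6T, Prosbeta2R1, Prosbeta2R2, Prosbeta4R1, Prosbeta4R2, Prosbeta5R1, Prosbeta5R2, Rpt3R, Rpt4R, Rpn12R and Rpn13R.

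Any candidate was found at 63.5% ± 14.8 of main-line genes and 6.25% ± 6.25 of paralogues (SD over 3 replicates), with 47.9% ± 3.81 for all protein-coding genes. The main-line genes were higher in every replicate, by 34.4, 68.8 and 68.8 percentage points in replicates 1, 2 and 3. For the strongest regions, main-line minus paralogue was 9.38, 15.6 and 15.6 percentage points in replicates 1, 2 and 3, a mean of 13.5 with an SD of 3.61. Here too the smallest p of an exact sign-flip test is 0.25. Prosbeta4R1 and Prosbeta4R2 lie near each other on 2L, starting at 2653046 and 2655394, and share a neighbourhood.

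All 6 thresholded summits lay at genes with a coding neighbour that starts upstream on the opposite strand within 500 bp, here called head to head. Upstream was counted from any start site of a gene. At Rpn6 and Rpn9 it held only for an inner start, so the neighbour began inside the longer transcript. This arrangement was found at 24 of 48 subunit genes (50.0%), against 27.4% of all protein-coding genes. Of the 24 head-to-head subunit genes 6 had a thresholded summit, against 29.1% of all head-to-head protein-coding genes, and of the other 24 subunit genes 0 had one, against 12.4% of all other protein-coding genes. Within the head-to-head genes the count was 0 of 9 for the core and 6 of 12 for the regulatory particle. The share of head-to-head genes was 64.3% in the core, 66.7% in the regulatory particle and 18.8% in the paralogues.

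Starts of both genes lay in the thresholded region at Rpt5, Rpn3 and Rpn6. The strongest thresholded region at Rpn5 and the one at Rpn13 held a start of the neighbour and none of the subunit gene. The further, weaker region at Rpn5 held starts of both. At Rpt5, Rpn13, Rpn5 and Rpn6 a start site of the neighbour was nearer to the summit than any start site of the subunit gene. The distance was 12 bp for RanBP3 at Rpt5, 80 bp for CtsL1 at Rpn13, 99 bp for Hat1 at Rpn5 and 108 bp for ave at Rpn6. At Rpn3 the neighbour l(2)37Bb began 160 bp from the summit, farther than Rpn3 itself. When each summit counted only for the coding gene with the nearest start, Rpn3 alone remained, 1 of 48 subunit genes, against 13.4% of all protein-coding genes. To which gene of a pair a summit belongs was not tested.

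**Figure D4:**
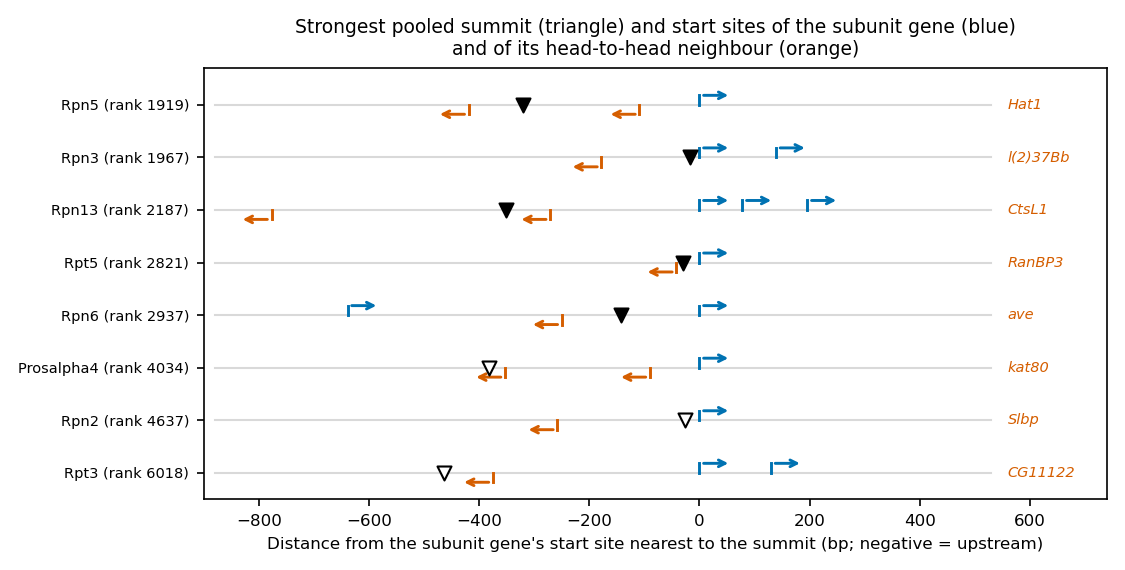
Position of the strongest pooled summit (filled triangles thresholded, open triangles in the next 3816 ranks) and of annotated start sites at 8 subunit genes, in bp from the subunit gene's start site nearest to the summit, with the subunit gene reading to the right. Blue arrows mark start sites of the subunit gene and orange arrows those of the head-to-head neighbour named at the right. At Rpt5 the summit lies between both starts, 30 bp from Rpt5 and 12 bp from RanBP3, and at Rpn13 it lies beyond the start of CtsL1.

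The promoters, taken as the 300 bp window with 250 bp before and 50 bp after each gene's most upstream start, were searched for 8 short words on both strands. The DRE word TATCGATA, bound in flies by the factor Dref, was in 12 of 48 subunit promoters (25.0%) and in 9.36% of all 13945 promoters. All 12 belonged to main-line genes, 6 of 14 core genes and 6 of 18 regulatory genes, and none to the 16 paralogues. The printed sequences from Rpt5 and Rpn3 hold it in front of the gene, with its first base at −46 and −197 bp from the most upstream start. Of the 4 genes with both the word and a thresholded summit, the distance between them is given for 3: it was 9 bp at Rpt5, 134 bp at Rpn13 and 172 bp at Rpn3. The promoter window did not reach the strongest summit at Rpn5, Rpn6, Rpn9 or Rpn13. Of the 51 bp windows around the strongest summits of the thresholded genes, only that at Rpt5 held the word.

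A thresholded summit was present at 4 of the 12 subunit genes with the word and at 2 of the 36 without it. The 36 include all paralogues, and among main-line genes alone the counts were 4 of 12 and 2 of 20. Among all protein-coding genes it was present at 24.3% of those with the word and 16.2% of those without. The core genes had none in either class, 0 of 6 with the word and 0 of 8 without, while the regulatory genes had 4 of 6 with it and 2 of 12 without. Because none of the 14 core genes had a thresholded summit, this split cannot show whether the word goes with a summit in the core. Prosalpha6, Prosbeta2 and Prosbeta6 carry the word in the printed lines and had no thresholded summit. The core of the word, ATCGAT, which is part of it, was in 18 subunit promoters (37.5%, against 23.3% of all).

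The antioxidant response word TGACNNNGC, which Nrf-type factors are known to bind, was in 6 subunit promoters (12.5%, against 8.63% of all), namely those of Prosalpha2, Prosbeta3, Prosbeta4R2, Rpn1, Rpn7 and Rpt6, and in none of the 6 with a thresholded summit. By line it was in 5 of 32 main-line promoters (15.6%) and 1 of 16 paralogue promoters (6.25%). The word GAGAG was in 3 of 32 main-line promoters (9.38%) and 6 of 16 paralogue promoters (37.5%), against 29.7% of all. GGTCACAC, the core of Motif 1 of fly promoters, was in 5 (10.4%, against 7.70% of all), all main-line (15.6% of 32), with 3 of 14 in the core (21.4%) and 2 of 18 in the regulatory particle (11.1%). The E-box CANNTG was in 34 (70.8%, against 77.2% of all) and TATAAA in 18 (37.5%, against 45.8% of all). The palindromic E-box CACGTG was in none of the 48, against 4.20% of all. Subunit promoters were low in G and C, with a median of 33.2% against 38.0% of all promoters, and the part of base composition in these word counts was not tested.

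Among 20 other genes of proteasome assembly, activity and ubiquitin supply, 16 had a pooled candidate, against 49.3% of all protein-coding genes. A thresholded summit lay at 6 of the 20 (30.0%, against 17.0% of all protein-coding genes). For these 20 genes the replicate ranks are those of each replicate's own strongest summit within 500 bp of any start site. They need not belong to the pooled summit. Pomp, the assembly factor of the core particle, had one of pooled rank 765 and signal 308, 261 bp from its start, with ranks of 889, 952 and 860 in replicates 1, 2 and 3. Its pooled summit was stronger than that of any subunit gene, and the ranks of the gene were even across replicates. The transcription factor gene cnc, with 10 annotated start sites, had one of rank 1493 and signal 220, 320 bp from a start. The strongest summit at any of its starts ranked 787, 1353 and 2203 in replicates 1, 2 and 3. Keap1, which encodes the inhibitor of the cnc protein, had one of rank 2484 and signal 168, with ranks of 1973, 2756 and 2053. All 3 of these genes were among the strongest regions of every replicate, and their own starts were the nearest coding starts.

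PI31, a regulator of the core particle, had a summit of rank 2051, nearer to the start of ADD1, with ranks of 9705, 1308 and 5170 in replicates 1, 2 and 3. Uch-L5, the deubiquitinase that binds Rpn13, had one of rank 2077, nearer to Jarid2, with ranks of 3730, 2215 and 4376. RpS27A, which encodes ubiquitin fused to a ribosomal protein, had one of rank 523, with no candidate in replicate 1 and ranks of 414 and 437 in replicates 2 and 3. Without RpS27A and RpL40, the other such fusion, the count was 5 of 18. Sem1, the small lid subunit that the symbol rule leaves out, had no pooled candidate, and neither had Usp14, Rad23 and maf-S, whose product pairs with that of cnc.

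Few subunit genes had a thresholded summit just beyond the 500 bp window. The nearest thresholded summit lay at a median of 8192 bp for core genes, 3136 bp for regulatory genes and 30032 bp for paralogues, against 8970 bp for all protein-coding genes. Within 1000 bp there were still only the 6 above of 48 subunit genes, against 2753 of 13945 protein-coding genes. Within 2000 bp there were 8 of 48, with Rpn11 at 1569 bp and Prosbeta6 at 1970 bp added, against 3366 of 13945. Other complexes read in the same way gave 76 of 92 cytoplasmic ribosomal protein genes (82.6%, median pooled rank 529 with a candidate) and 6 of 33 vacuolar ATPase genes (18.2%, median pooled rank 4694). All protein-coding genes gave 17.0%, near the share of the vacuolar ATPase genes. In the thresholded list the 48 proteasome genes, of which 16 are paralogues without such a summit, were at 12.5%. They were nearer to the vacuolar ATPase genes than to the ribosomal protein genes. In the strongest regions of the replicates the proteasome genes averaged 9.03% ± 2.41 and the vacuolar ATPase genes 25.3% ± 4.63 (SD, n = 3). All protein-coding genes averaged 16.5% ± 0.859. Among the strongest of all 3 replicates were 2.08% of proteasome genes and 15.2% of vacuolar ATPase genes, against 9.38% of all protein-coding genes.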

How the data were processed

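Peak lists from ChIP-seq of CG6765-eGFP in whole embryos (3 biological replicates, 1 group, no control among the samples analysed here) were used as deposited on dm6. The lists on dm3 were not used. Per the labels, the immunoprecipitation was with an anti-GFP antibody by the description field and with CG6765 by the antibody field. Chromatin was sonicated to 200 to 800 bp, per the labels. Per the listings deposited with each sample, candidate regions were called against a control for each replicate and for the pooled replicates, and the thresholded list was derived from them. The labels and listings used here name no aligner, caller or threshold. The authors deposited for each region a signal value of no stated unit, the −log10 of a q-value, and the summit position. Only the signal was used for ranking, within a list.

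Start sites came from Ensembl release 115 on BDGP6.54, which has the coordinates of dm6, and sequences from the RefSeq assembly of the same build. Positions count from 1. Summits within 100 bp counted as the same. Python 3.11.15 with pandas 2.3.3, numpy 2.4.6 and scipy 1.17.1 was used, and matching of summits to genes was tested on simulated data. Named were the genes with a thresholded summit, those ranked in the next 3816 places, the extremes of the others, and those without a candidate; further members were named after their values were seen, as were Sem1, Usp14, Rad23 and maf-S. The members, word lists and gene lists were chosen with earlier results of these data known. A gene near these sites is not reported here. No test was made over the list of genes, which is described by counts beside all protein-coding genes. Alternatives varied the distance to a start site (250, 1000 and 2000 bp), nearest start only, interval overlap, the number of regions read per list, the summit match (50 and 200 bp) and left out each replicate.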

Additional observations from a re-analysis of the deposited data

How the results depend on the processing

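The count of 6 subunit genes with a thresholded summit was 5, 6 and 8 at 250, 1000 and 2000 bp and 6 by interval overlap, but 1 with the nearest start only and 0 with the 1908 strongest regions. In all settings with a count above 0 regulatory genes made it up, except that 2000 bp added 1 core gene. The count of 1 gene among the strongest regions of all replicates was 4 at 2000 bp, 0 with 1000 regions per replicate, 4 with 7632, and 2 whichever replicate was left out. The mean share of 9.03% was 5.56% at 250 bp, 16.0% at 2000 bp, 2.08% with the nearest start only, 0.694% with 1000 regions and 19.4% with 7632, and ran between 8.33 and 10.4% without each replicate. Core minus regulatory, −19.8 percentage points, was −5.56 with the nearest start only, −1.85 with 1000 regions, −34.9 with 7632 and −33.3 in the thresholded list, and ran between −22.2 and −15.9 without each replicate. Main-line minus paralogue, 13.5 points, was 8.33 at 250 bp, 24.0 at 2000 bp, 3.12 with the nearest start only, 1.04 with 1000 regions, 29.2 with 7632 and 18.8 in the thresholded list, and ran between 12.5 and 15.6 without each replicate. No difference changed sign. Reading fewer or more regions lowers or raises these shares by construction, and the cause of the other shifts was not tested. Of 27 pairs of a named summit and a replicate, 25 matched within 100 bp, 21 within 50 bp and 25 within 200 bp. Unknown depth limits every replicate comparison: a summit missing from a replicate list may be weak or undersampled.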
